A study of Homo sapiens with 6 samples.

Results

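A group of 9 mature microRNAs (miRs) from 6 hairpins was followed in small RNA libraries of HEK293T cells, a human embryonic kidney line, after knock-down (KD) of RPL24. These miRs were picked by name as those lower after RPL24 KD, with the other arm of the hairpin for 3 of them, and they are miR-126-3p, miR-126-5p, miR-185-5p, miR-185-3p, miR-574-5p, miR-574-3p, miR-504-5p, miR-1303 and miR-7974. These 9 are rows among the 2588 miR names of the count table, of which 1205 had at least 1 read and 360 passed the filter on low counts. Because the choice used the difference between RPL24 KD and the control, that difference is described here with no p-value for the 9 miRs, and counts of calls among them describe the choice.

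The 3 RPL24 KD samples received siPOOLs, mixtures of many siRNAs, against RPL24 at 50 nM, and the 3 negative control (NC) samples received non-targeting siPOOLs at the same dose. Both groups were harvested 72 h later, a time that the labels call day 72. Labels and methods also mention a plasmid with miR-608, transfected 48 h after the siPOOLs in both groups. The paper describes the sequenced cells as coming from an RPL24 KD of its own, hsa-miR-608 had 0 counts in all 6 libraries, and whether these cells received the plasmid is not stated. Nothing in the labels tells whether the samples of a group were separate cultures, so all p-values measure the spread between these samples, which may be technical. The titles of the NC samples also carry the words RPL24 KD, and the groups were taken from the treatment that the labels state. The mRNA of RPL24 is not part of a small RNA library, and its depletion was not checked here.

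A miR gene is transcribed as a long primary transcript, the pri-miR, from which the microprocessor (DROSHA and DGCR8, with helpers such as the helicase DDX5) cuts a hairpin. DICER1 removes the loop, and one strand of the remaining duplex, the 5p or the 3p arm, is loaded into an Argonaute protein while the other is mostly degraded. The loaded miR finds its targets mainly through its seed, the bases after the first one at the 5′ end, and lowers the stability and translation of mRNAs that pair with it. RPL24 is a protein of the large ribosomal subunit.

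The mature sequences show what each of the 9 miRs can pair with, and they are printed 5′ to 3′ with the seed (bases 2 to 8) in capitals, as RefSeq gives them on GRCh38.p14.
hsa-miR-126-3p: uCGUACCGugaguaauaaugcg
hsa-miR-126-5p: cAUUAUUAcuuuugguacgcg
hsa-miR-185-5p: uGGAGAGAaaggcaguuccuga
hsa-miR-185-3p: aGGGGCUGgcuuuccucugguc
hsa-miR-574-5p: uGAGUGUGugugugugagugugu
hsa-miR-574-3p: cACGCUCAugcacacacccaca
hsa-miR-504-5p: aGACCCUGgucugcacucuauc
hsa-miR-1303: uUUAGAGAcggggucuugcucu
hsa-miR-7974: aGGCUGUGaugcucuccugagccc

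No seed was shared within the group: 0 pairs of the 9 miRs had the same bases 2 to 8. Lengths lay between 21 and 24 nt. The GC content ranged from 38.1% in miR-126-5p to 63.6% in miR-185-3p, on both sides of the median of 52.2% over the 2281 miR names of the table with a RefSeq sequence. MiR-574-5p stands apart by its run of alternating U and G. The letters UGUG occur in it 6 times, counting overlaps and the given strand only, and it was the only one of the 2281 mature sequences with 5 or more, while 12.76% of the mature sequences hold UGUG at least once. This GU-rich run is known as a binding sequence of the RNA-binding protein CELF1.

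Outside the 9, a seed of bases 2 to 8 was shared with 2 other miRs of the table, and their sequences are shown because reads of a near-identical miR could be counted under either name.
hsa-miR-4306: uGGAGAGAaaggcagua
hsa-miR-4725-5p: aGACCCUGcagccuucccacc

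MiR-4306 is 17 nt long and has the same first 16 bases as miR-185-5p. How reads that fit more than 1 miR were counted is not stated in the sources used here. MiR-4306 held 0, 2 and 1 counts in the RPL24 KD libraries (replicate 1, replicate 2 and the unnumbered library) and 0 in each NC library, against 706 to 1286 counts of miR-185-5p, so few reads went to the shorter name. MiR-4725-5p matches miR-504-5p over its first 8 bases and held 0 counts in all 6 libraries. Neither passed the filter, and no fold change can be given. The other 7 miRs had no partner with the same bases 2 to 8 in the table. Each of the 9 whole mature sequences was found in its own hairpin and in 0 transcripts of other genes of GENCODE 29. The first 18 bases were also found in transcripts of 3 other genes for miR-574-5p and of 1 other gene for miR-1303.

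The 6 hairpins lie on 6 chromosomes, and none overlaps an exon of another gene in GENCODE 29 (GRCh38). MIR126 lies at chr9:136670602-136670686 on the plus strand, in an intron of 5 transcripts of EGFL7, a gene of the vascular endothelium. MIR185 lies at chr22:20033139-20033220 on the plus strand, in an intron of 19 TANGO2 transcripts and in intron 1 of 18 of them, within the region that is deleted in DiGeorge syndrome. MIR574 lies at chr4:38868032-38868127 on the plus strand, in intron 1 of 3 FAM114A1 transcripts. MIR504 lies at chrX:138667711-138667793 on the minus strand, in an intron of 6 transcripts of FGF13, a fibroblast growth factor homologous factor. MIR7974 lies at chr19:11495544-11495622 on the minus strand, in intron 3 of 2 transcripts of ZNF653 and of 1 transcript of AC008481.3. MIR1303, at chr5:154685776-154685861 on the plus strand, lies within no other annotated transcript. In all 5 intronic cases the host is transcribed from the same strand as the hairpin.

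The hairpins themselves differ in loop and fold. A UGUG in the loop is one of the elements known to help the microprocessor recognise a pri-miR. With both arms placed, the sequence between them could be read for 4 of the 6 hairpins, and these loops are shown with UGUG in capitals.
MIR126: cUGUGacacuucaaac
MIR185: ugguccccucccc
MIR574: gucgcuccggguc
MIR504: uguauucuuacugaa

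Of these 4, 1 loop holds UGUG, that of MIR126, against 92 of the 720 hairpins of the table whose loop could be read (12.8%), searched on the hairpin strand only. The predicted minimum free energy of folding per nt was −0.639 kcal/mol for MIR504, −0.63 for MIR185 and −0.627 for MIR574, lower than in most hairpins (between 9.6% and 11% of the 1467 hairpins with a sequence had a lower value). MIR126 had −0.472 kcal/mol per nt, close to the median of −0.453. MIR7974 had −0.299 kcal/mol per nt, and 91.8% of the hairpins had a lower value. These 5 hairpins thus lay at both ends of the range of predicted stability, and no value is given for MIR1303.

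The libraries held between 398721 and 611745 counts, and levels are given as CPM, the share of the library's TMM-scaled total multiplied by 1000000, which is not divided by length. On that scale the floor of 3 counts is between 4.99 and 7.52 CPM, covering counting error only. In each group 2 libraries carry a number found in the labels (replicates 1 and 2), and the other library is called unnumbered because its number matches no label. The NC libraries differed more among themselves than the RPL24 KD libraries, with a chi-square per degree of freedom of 12 to 21.5 between NC pairs and 2.5 to 2.84 between RPL24 KD pairs. All 9 miRs lay above the filter, near 18.7 CPM in a library of median size, in every library of either group, so none of them was tested through 1 group alone.

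In NC cells the 9 miRs spanned a wide range of levels, a measure that the choice did not use. MiR-185-5p, at 2286 ± 134 CPM (SD, n = 3), had rank 56 by mean level among the 360 miRs, and miR-126-3p, at 1949 ± 242 CPM (SD, n = 3), had rank 59. These neighbours overlapped in NC, since miR-126-3p reached 2222 CPM and miR-185-5p went down to 2187 CPM. MiR-7974, at 867 ± 140 CPM (SD, n = 3, rank 86), and miR-1303, at 830 ± 69.4 CPM (SD, n = 3, rank 88), were also not separated. Below them came miR-504-5p at rank 127, miR-574-5p at rank 177, miR-574-3p at rank 230, miR-185-3p at rank 247 and miR-126-5p at rank 302. Of the neighbours in this lower stretch, miR-574-3p and miR-185-3p overlapped in NC and the others did not. Of the 9, 4 had at least 100 counts in every library, while the least abundant, miR-126-5p, had 11 to 27.

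After RPL24 KD the summed level of the 9 miRs was 5111, 5133 and 4995 CPM, against 6365, 6982 and 6529 CPM in NC. All 9 fitted log2 fold changes were below 0, with a median of −0.39, where 52.8% of all tested miRs were below 0 and the median of all tested miRs was −0.0084. By edgeR (quasi-likelihood, p-values adjusted by Benjamini-Hochberg over the 360 miRs, threshold 0.05), 5 of the 9 were called lower (miR-126-3p, miR-185-5p, miR-574-5p, miR-504-5p and miR-1303), beside a background of 6 miRs called lower (1.67%), 12 called higher (3.33%) and 18 called in all (5.00%). In 7 of the 9 every RPL24 KD library lay below every NC library, which held for 46 (12.8%) of all tested miRs. Since the miRs were chosen for this difference, these counts describe the choice.

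**Figure D1:**
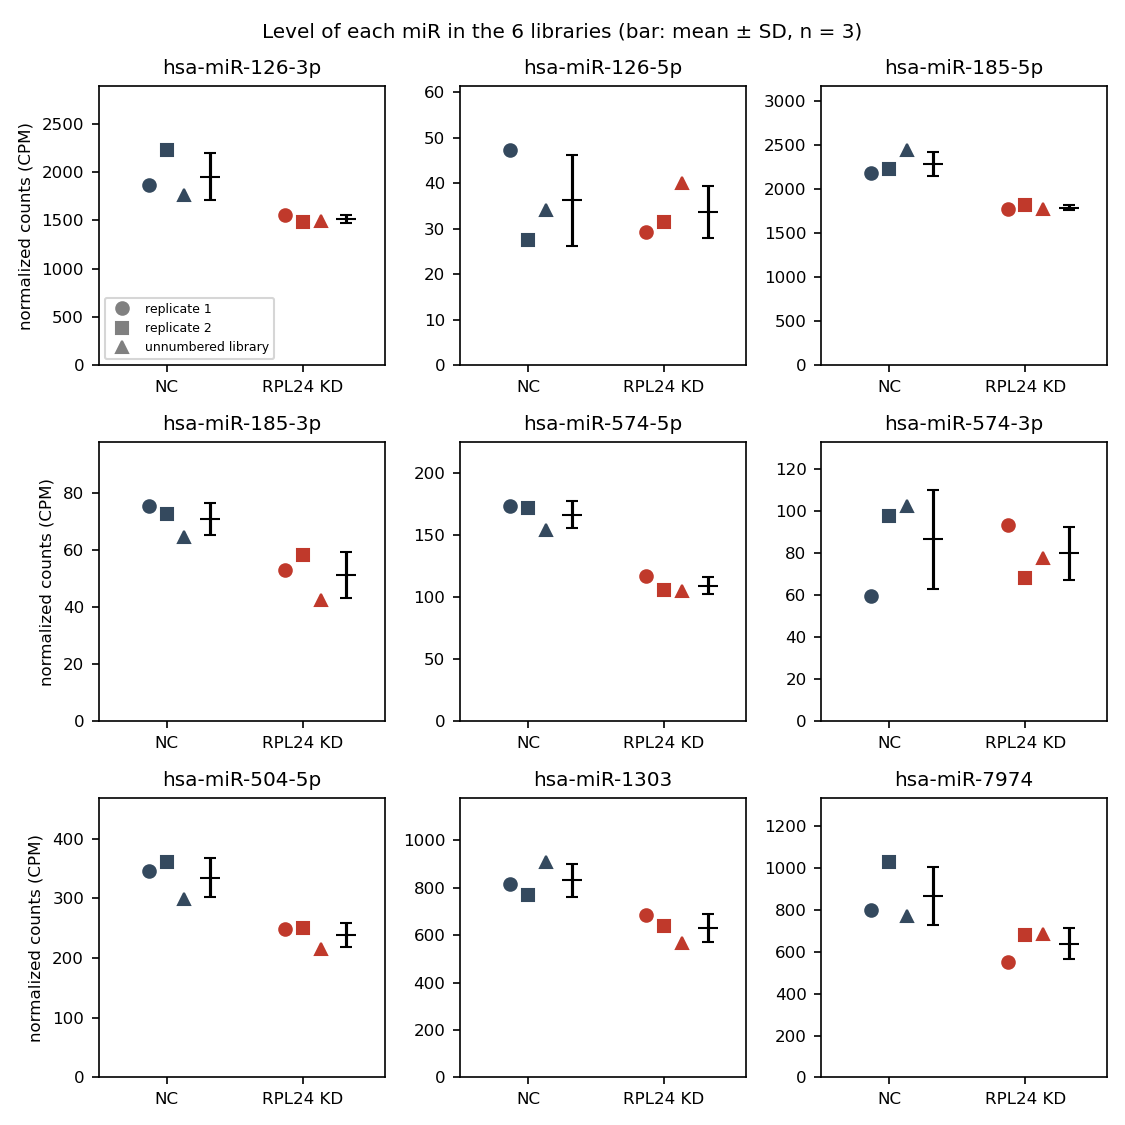
Normalized counts (CPM, linear axes from 0) of each of the 9 miRs in the 3 NC and 3 RPL24 KD libraries, with symbols for the replicate number and bars for the mean ± SD (n = 3). The groups are apart in 7 panels and overlap for miR-126-5p and miR-574-3p.

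MiR-126-3p is the main product of MIR126. It is abundant in endothelial cells, where it promotes angiogenic signalling by repressing inhibitors such as SPRED1 and PIK3R2. Its level was 1560, 1479 and 1493 CPM in RPL24 KD replicate 1, replicate 2 and the unnumbered library, and 1863, 2222 and 1761 CPM in the NC libraries in the same order. The RPL24 KD libraries were tightly grouped below the NC libraries, of which replicate 2 stood highest. The mean was 1511 ± 43.1 CPM (SD, n = 3) after RPL24 KD and 1949 ± 242 CPM (SD, n = 3) in NC, with a fitted log2 fold change of −0.36 (22.2% lower) and a standard error of 0.0896. Without NC replicate 2 the log2 fold change was −0.26, and without the unnumbered NC library it was −0.44.

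The opposite arm, miR-126-5p, was the less abundant arm in these libraries and was scarce. It had 29.3, 31.6 and 40.1 CPM after RPL24 KD and 47.2, 27.5 and 34.1 CPM in NC, from 11 to 27 counts a library. The groups overlapped, with the lowest and the highest value both in NC. Its log2 fold change was −0.17 (standard error 0.2858), and it went to 0.075 without NC replicate 1. At this depth a decrease of the size seen for miR-126-3p and no difference both lay within the error.

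MiR-185-5p represses, among others, the mRNAs of DNMT1, the maintenance DNA methyltransferase, and of RHOA, a small GTPase of the cytoskeleton. It was the most abundant of the 9, with 1772, 1820 and 1769 CPM after RPL24 KD and 2187, 2232 and 2438 CPM in NC. The groups were far apart relative to their spread, and the RPL24 KD libraries lay within 51.7 CPM of each other. The means of 1787 ± 28.9 CPM (SD, n = 3) and 2286 ± 134 CPM (SD, n = 3) went with a fitted log2 fold change of −0.35 (standard error 0.073), or 21.8% lower. This was the smallest standard error of the 9, and without any 1 library the value lay between −0.39 and −0.32.

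Its partner miR-185-3p was measured from 17 to 43 counts a library. It had 53.0, 58.2 and 42.6 CPM after RPL24 KD and 75.2, 72.5 and 64.5 CPM in NC. The groups did not overlap, with the highest RPL24 KD library, replicate 2, at 0.903 of the lowest NC library. The log2 fold change of −0.43 (standard error 0.2037) came with a larger error than that of miR-185-5p, and the miR was not called.

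MiR-574-5p, with the GU run shown above, had the largest difference of the 9 on the log2 scale. Its level was 117, 106 and 105 CPM after RPL24 KD and 173, 172 and 154 CPM in NC, from 42 to 99 counts. All RPL24 KD libraries were well below all NC libraries, the highest of them at 0.762 of the lowest NC value. The means were 110 ± 6.49 CPM (SD, n = 3) and 166 ± 11.1 CPM (SD, n = 3), with a fitted log2 fold change of −0.60 (33.8% lower) and a standard error of 0.1417. Leaving out a library moved it between −0.67 and −0.56.

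MiR-574-3p, cut from the same hairpin, had 93.3, 68.2 and 77.7 CPM after RPL24 KD and 59.5, 97.5 and 102 CPM in NC. The groups overlapped widely, and NC replicate 1 was the lowest of all 6 libraries while it was the highest for miR-574-5p. The log2 fold change was −0.095 (standard error 0.2241). It changed sign to 0.024 without RPL24 KD replicate 2 and to 0.065 without the unnumbered NC library.

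MiR-504-5p, from the FGF13 intron, had 249, 251 and 215 CPM after RPL24 KD and 345, 360 and 298 CPM in NC. In both groups the unnumbered library was the lowest, and the groups did not overlap. The means of 238 ± 20 CPM (SD, n = 3) and 334 ± 32.5 CPM (SD, n = 3) went with a fitted log2 fold change of −0.47 (standard error 0.1202), or 27.8% lower, with values from −0.56 to −0.42 when a library was left out. The other arm, miR-504-3p, had 2, 1 and 1 counts after RPL24 KD and 0, 0 and 2 counts in NC, under the floor throughout, so no difference could be measured for it.

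MiR-1303 comes from the hairpin outside any host gene. It had 686, 639 and 566 CPM after RPL24 KD and 815, 770 and 906 CPM in NC. The lowest NC library, replicate 2, was still above the highest RPL24 KD library, which stood at 0.891 of it. The means were 630 ± 60.3 CPM (SD, n = 3) and 830 ± 69.4 CPM (SD, n = 3), with a fitted log2 fold change of −0.39 (23.9% lower) and a standard error of 0.0993.

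MiR-7974 had 552, 679 and 686 CPM after RPL24 KD and 801, 1027 and 772 CPM in NC. The groups were apart by a ratio of 0.89 between the highest RPL24 KD and the lowest NC library, and each group had 1 library away from the other 2, RPL24 KD replicate 1 on the low side and NC replicate 2 on the high side. The means were 639 ± 75.4 CPM (SD, n = 3) and 867 ± 140 CPM (SD, n = 3). The fitted log2 fold change was −0.43 (standard error 0.121), or 25.9% lower. The miR was not called in the fit reported here. It was called in 10 of the 11 other settings and in 2 of the 6 fits without 1 library. As the miR was chosen for this difference, these calls describe the choice. Without NC replicate 2 the value was −0.30.

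**Figure D2:**
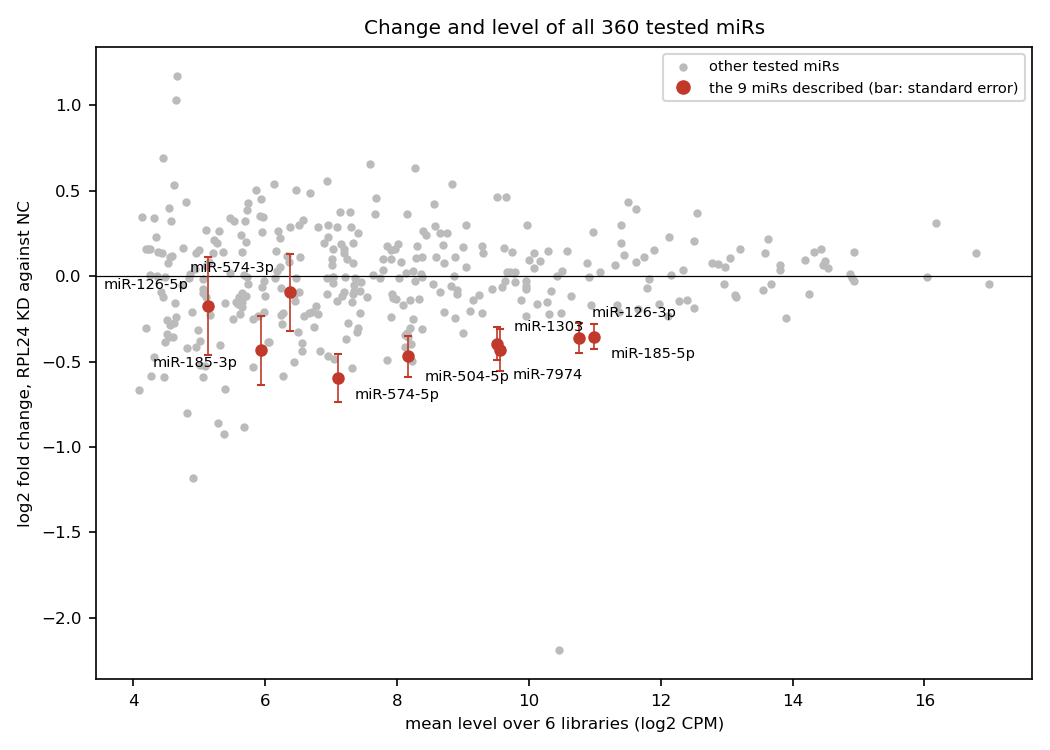
Log2 fold change (RPL24 KD against NC) plotted against the mean level over the 6 libraries (log2 CPM) for the 360 tested miRs, with the 9 miRs in red and their standard errors as bars. The 9 points lie below 0, from −0.60 for miR-574-5p to −0.095 for miR-574-3p, and the bars shorten toward the abundant miRs on the right.

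The libraries at the edges of the groups differed from miR to miR. The highest NC library was replicate 2 for miR-126-3p, miR-504-5p and miR-7974, the unnumbered one for miR-185-5p, miR-574-3p and miR-1303, and replicate 1 for miR-126-5p, miR-185-3p and miR-574-5p. The spread also differed. On the log2 scale miR-126-3p had an SD of 0.041 in RPL24 KD and 0.175 in NC, and miR-185-5p had 0.023 and 0.083. The order was reversed for miR-185-3p, with 0.227 in RPL24 KD and 0.115 in NC, and for miR-1303, with 0.14 and 0.119. Over the 166 tested miRs whose mean count reached 100, the median SD was 0.074 in RPL24 KD and 0.114 in NC.

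The log2 fold changes of the 7 miRs whose groups did not overlap lay between −0.60 and −0.35, a decrease of 21.8% to 33.8%, with standard errors from 0.073 to 0.2037. Differences between these 7 were not tested. Under the settings other than leaving out a library, miR-126-3p stayed between −0.43 and −0.35, miR-185-5p between −0.40 and −0.31, miR-1303 between −0.44 and −0.27 and miR-7974 between −0.58 and −0.42. In these ranges −0.43, −0.31, −0.27 and −0.58, in the same order of miRs, came from the 2 settings that use the 4 numbered libraries alone. The number of the 9 that were called lower was less stable. It was 0 without RPL24 KD replicate 1 and also 0 without RPL24 KD replicate 2. Each of these 2 fits held 56 miRs at an unadjusted p under 0.05. The number was 1 without the unnumbered RPL24 KD library, 3 without NC replicate 2, 4 without NC replicate 1 and 6 without the unnumbered NC library. Over all tested miRs, the 9 included, the number called lower in these fits was 0, 1, 4, 6, 10 and 20, in the same order. The calls among the 9 thus went up and down with those of the whole list.

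**Figure D3:**
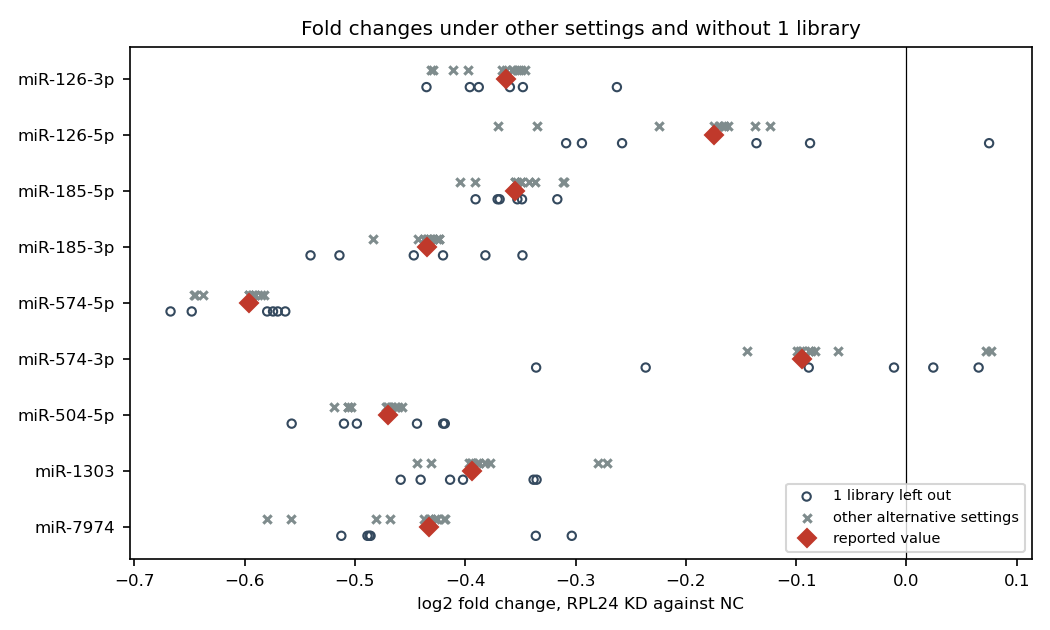
Log2 fold change of each of the 9 miRs as reported (red diamonds), under the other settings (crosses, 2 of them from the 4 numbered libraries alone) and with 1 library left out (open circles). Of the 9, 7 stay below 0 throughout, while miR-126-5p reaches 0.075 and miR-574-3p reaches 0.077.

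The arms of a hairpin are cut from the same precursor, so their ratio within a library does not depend on the scaling between libraries. It was computed as the log2 ratio of the counts, with 0.5 added to each arm, for the 3 hairpins with both arms among the 9. In MIR126 the 3p arm exceeded the 5p arm by 36.2-fold to 77.3-fold, and in MIR185 the 5p arm exceeded the 3p arm by 28.7-fold to 40.4-fold. MIR574 was different in kind, with a 5p arm only 1.25-fold to 2.88-fold above the 3p arm, so that both of its arms were present at similar levels.

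The log2 arm ratio of MIR126 was 5.69, 5.51 and 5.18 after RPL24 KD and 5.28, 6.27 and 5.65 in NC, a difference of −0.27 that went to −0.0033 without NC replicate 2 and to −0.50 without NC replicate 1. For MIR185 it was 5.04, 4.95 and 5.34 after RPL24 KD and 4.85, 4.92 and 5.22 in NC, a difference of 0.11. In MIR574 the ratio was 0.32, 0.64 and 0.43 after RPL24 KD and 1.53, 0.82 and 0.58 in NC, a difference of −0.51. The groups overlapped for all 3 hairpins. The difference in MIR574 leaned on NC replicate 1, where miR-574-5p was at its highest and miR-574-3p at its lowest, and was −0.23 without that library. The difference in MIR185 changed sign to −0.0032 without the unnumbered RPL24 KD library. Both arms of MIR185 were lower after RPL24 KD in every library than in NC, and their ratio moved by less than its SD of 0.20 in either group.

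Other miRs were compared through lists that share a property with the 9. The hairpins of 10 miRs lie within 100 kb of a hairpin of the 9, and 6 of these had 0 counts in all libraries. The 2 that passed the filter, miR-1306-3p and miR-1306-5p, come from a hairpin 52852 bases from MIR185 that lies in DGCR8, the gene of the RNA-binding subunit of the microprocessor. Neither was called. MiR-1306-3p had 32.9, 25.0 and 22.5 CPM after RPL24 KD and 19.2, 22.5 and 9.48 CPM in NC, from 5 to 18 counts a library. Its log2 fold change was 0.69 with a standard error of 0.3748 (edgeR adjusted p = 0.305), and without the unnumbered NC library it was 0.38. For miR-1306-5p it was −0.028 with a standard error of 0.2088 (edgeR adjusted p = 0.967).

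Of the 6 hairpins, 5 are intronic. Without the 9, the table lists 1012 miRs whose hairpins all lie in introns of protein-coding genes on the same strand, outside their exons. Of those that passed the filter, 3 were called higher and 1 lower (2.84% in all, against 5.00% of all tested miRs). The 5.00% includes the 9 miRs, of which 5 were called, and the intronic list leaves them out. The 2 shares are therefore not alike, and nothing is read from their difference. Of the intronic miRs that passed the filter, 77 (54.6%) had a log2 fold change below 0. Their median log2 fold change was −0.0129, close to that of all tested miRs.

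MiR-126 is a marker of endothelium, which a kidney cell line should lack, so markers of other cell types were read beside it. Of the 16 markers other than miR-126, 4 were at 0 in all libraries (counts of 0 in a library of this depth allow up to 4.99 to 7.52 CPM) and 10 were below 3 counts in every library. Their summed level was 347 to 373 CPM after RPL24 KD and 432 to 580 CPM in NC, so it was lower in RPL24 KD, as miR-126-3p was. Most of it was miR-1-3p, a miR of heart and skeletal muscle, with 241, 266 and 261 CPM after RPL24 KD and 355, 347 and 309 CPM in NC, or −0.40 on the log2 scale with a standard error of 0.1125 (edgeR adjusted p = 0.0558). MiR-1-3p was called lower in 6 of the 11 other settings, fits without 1 library aside. MiR-133a-3p, also of muscle, had 2, 4 and 2 counts after RPL24 KD and 7 in each NC library. MiR-206, the other muscle marker, had 0 counts in all libraries. The neuronal miR-124-3p had 0, 1 and 0 counts after RPL24 KD and 1, 8 and 6 in NC. The epithelial miR-200c-3p went the other way, with 76.8, 69.9 and 62.6 CPM after RPL24 KD and 50.7, 55.0 and 60.7 CPM in NC. These groups did not overlap, and the difference was 0.34 on the log2 scale (edgeR adjusted p = 0.333). Of the other epithelial markers, miR-141-3p had 0, 1 and 0 counts after RPL24 KD and 1, 0 and 1 in NC. MiR-205-5p had 0 counts in all libraries. Without miR-1-3p the sum was 106 to 110 CPM after RPL24 KD and 77.0 to 232 CPM in NC, and the groups overlapped. The high end was NC replicate 2. There miR-143-3p, a miR of smooth muscle and fibroblasts, stood at 125 CPM against 8.75 and 34.1 CPM in the other NC libraries. MiR-145-5p, the other marker of these cells, had 0, 0 and 2 counts after RPL24 KD and 0, 2 and 2 in NC. NC replicate 2 was the highest library for miR-126-3p as for miR-143-3p. For miR-126-5p, from the same hairpin as miR-126-3p, it was the lowest of all libraries, at 27.5 CPM (11 counts). The part of these markers in the level of miR-126-3p was not tested, and in such bulk samples fewer cells of a type and less RNA per cell cannot be told apart.

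The 5 miRs outside the group whose levels over the 6 libraries were most like the mean of the 9, by Pearson's r with the mean z-score of the 9 log2 levels, were miR-183-5p (r = 0.945), miR-182-5p (r = 0.935), miR-1-3p (r = 0.929), miR-1296-5p (r = 0.923) and miR-181c-3p (r = 0.918). The 6 points share the split into RPL24 KD and NC libraries, so the likeness is a description. In all 5 the RPL24 KD libraries lay below the NC libraries, which held for 46 (12.8%) of all tested miRs. The mean of the 9 holds this difference, so the 5 were in effect picked on it. Their adjusted p-values for the same difference are therefore a description too. MiR-183-5p and miR-182-5p, which come from 1 cluster and act in sensory organs, differed by −0.23 (edgeR adjusted p = 0.0569) and −0.19 (edgeR adjusted p = 0.0854) on the log2 scale. MiR-1296-5p differed by −0.37 (edgeR adjusted p = 0.128). MiR-181c-3p, with a mean of 15 counts, differed by −1.18 (edgeR adjusted p = 0.0339). It was the only miR outside the 9 that was called lower in the edgeR fit reported here, and some other settings called more.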

How the data were processed

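Small RNA from 3 RPL24 KD and 3 NC samples was sequenced. The authors used FastQC 0.11.9 for read quality, Flexbar for trimming and filtering and miRExpress with miRBase for alignment, and deposited raw read counts per mature miR and library, without normalization. The 9 miRs, the lists and the rule for names (all 9, miR-504-3p, tested miRs of the lists, and the 5 most alike) were chosen with earlier results of these data known. Of the lists, 1 is not reported here.

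Counts were fitted with edgeR 4.0.16 in R 4.3.3 (quasi-likelihood, TMM, filterByExpr with a minimum count of 10, Benjamini-Hochberg, threshold 0.05) over all 360 tested miRs. CPM are shares of the TMM-scaled total multiplied by 1000000. Log2 fold changes are RPL24 KD against NC, and standard errors are implied by the F statistic. DESeq2 1.42.0, limma 3.58.1, other scalings and filters, each library left out and the replicate block (numbered libraries alone) were alternatives. Mature and hairpin sequences came from RefSeq (2281 of 2588 names matched), hosts and transcripts from GENCODE 29, and folding energies from ViennaRNA 2.7.2. Libraries whose column number matched no label were used without a number.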

Additional observations from a re-analysis of the deposited data

How the results depend on the processing

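Of 149 log2 fold changes of the 9 miRs under alternatives, 5 changed direction and the others kept it. These were miR-126-5p (0.0749 without NC replicate 1, in a range down to −0.3085 without a library, and −0.3699 in the 4 numbered libraries) and miR-574-3p (0.0723 with the replicate block, 0.0766 in the numbered libraries without a block, 0.0243 without RPL24 KD replicate 2 and 0.0654 without the unnumbered NC library, in a range down to −0.3357 without a library). Among listed miRs, miR-1-3p was called in 6 of 11 settings and, without 1 library, in 1 of 6. Without a library miR-1306-5p ranged from −0.1301 to 0.1443 (0.0187 without RPL24 KD replicate 2, 0.0121 without the unnumbered RPL24 KD library), miR-143-3p from −1.5107 to 0.3026 (without NC replicate 2), and the arm difference of MIR185 from −0.0032 to 0.2237. The 5 miRs called lower among the 9 became 0 to 6 without a library and 4 to 6 otherwise. The 18 DE miRs became 28 with total counts, 31 without a filter, 34 with robust edgeR, 57 with the replicate block, which uses the 4 numbered libraries alone (27 in the same libraries without it), and 0 to 36 without a library. The 6 lower became 18, 16, 16 and 28 in the same settings, 17 with a mean of at least 100 counts, 17 in the numbered libraries without a block, 10 with the legacy fit of edgeR (chosen after seeing the data) and 0 to 20 without a library. The 12 higher became 29 with the block and 0 to 16 without a library. The 4 intronic miRs called became 7, 7, 9 and 16 in these settings, 9 with a mean of at least 100 counts and 0 to 7 without a library. Where the count was 0, without RPL24 KD replicate 1, 56 miRs had an unadjusted p under 0.05. A seed of bases 2 to 7 gave 7 seed mates instead of 2. What caused these changes was not tested. The median of all miRs was −0.0084 as reported and −0.0581 with total counts.

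Same-numbered libraries deviated with a correlation of −0.141 for number 1 and 0.118 for number 2 over 360 miRs. These 2 values cannot tell whether libraries with the same number were paired. With the replicate block, 6 of the 9 miRs were called lower, beside 28 of all tested miRs. The CNNC motif after the 3p arm was not run. Depth limits miR-126-5p, miR-185-3p, miR-574-3p and miR-504-3p, with means of under 50 counts.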
